A study of Mus musculus with 20 samples.

Results

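Voltage-gated and potassium channel subunits were described in C2C12 cells, a mouse myoblast line that can form muscle fibres or, under bone morphogenetic proteins, take on osteoblast traits. All genes whose own symbol on the array starts with Kcn, Cacna, Cacnb or Cacng, or with Scn followed by digits and a or b, were taken, which gave 126 of the 22180 genes measured. Of these 124 are protein coding and 2, Kcnd3os and Kcnq1ot1, are non-coding RNAs. Each gene was read by its brightest probe set, and 10 of the 126 genes had more than 1. Scn4a, which encodes the main sodium channel pore of muscle, was not analysed here.

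Cells of every group grew in medium with 5% serum and received fresh medium at treatment, and RNA was read on Affymetrix arrays. The 20 arrays held 2 of untreated cells, 3 of cells given methanol, 2 for every dose of recombinant BMP4 (10, 100 and 300 ng/ml) and 1 for every dose of the compounds 942, 178 and 181 at 6.25, 12.5 and 25 µM. The series sets the compounds beside BMP4, a ligand that activates SMAD factors through the BMP receptors. The compounds are known here by code name only, and how long the cells were treated is not stated in the labels. Brightness, here and below, was the mean signal over all 20 arrays, those of BMP4 included. Of the 10 myoblast genes checked, 10 were brighter than the median gene, and so were 15 of 16 sarcomere and 9 of 11 osteoblast markers. The same held for 7 of 8 smooth muscle and 7 of 10 neuron markers, so brightness alone does not set these cell types apart. Fewer were brighter among epithelial (4 of 7), cardiomyocyte (3 of 8) and macrophage (1 of 8) markers, and none of 8 endothelial or 6 glial markers was. Markers raised by BMP4 can pass through the BMP4 arrays. The osteoblast gene Sp7 (mean 5.51, median gene 5.43) rose by 6.18 at 300 ng/ml, and the epithelial gene Krt14 (mean 6.18) by 4.75. These counts therefore do not give the state of untreated cells. All values are log2 signals, and all tests are limma's with Benjamini-Hochberg adjustment over the 22180 genes. A gene was called at an adjusted p under 0.05.

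Excitable cells open sodium, calcium and potassium pores in turn as the membrane voltage changes. In skeletal muscle the L-type calcium channel of the surface membrane acts mainly as the voltage sensor that opens the ryanodine receptor of the calcium store. Potassium channels set the resting voltage, and inward rectifiers and Kcnh1 are known for the hyperpolarisation of myoblasts before fusion. Each channel is built from pore-forming alpha subunits and from auxiliary subunits that alter their traffic and gating.

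BMP4 changed a small set of these genes. The mean over the 3 BMP4 doses minus untreated cells was called for 8 genes, 2 raised and 6 lowered. These are 1.59% and 4.76% of the 126, against 4.2% of all genes raised and 4.6% lowered, so the shares of called channel genes were below and near the background. Lowered were 3 subunits of the muscle L-type channel (Cacna1s, Cacnb1 and Cacng1), the sodium channel relative Scn7a, the calcium-activated potassium channel Kcnn3 and the voltage-gated potassium channel Kcna3. Raised were Cacng7 and the T-type calcium channel Cacna1g. A ninth gene, Kcnf1, was called at 300 ng/ml and in the dose trend.

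Promoter windows are shown for Cacna1s and Scn7a, the pair with the largest falls, and for Cacng7, the gene with the largest rise, because these are the sequences just upstream of the changes described next. They are RefSeq sequences on build GRCm38.p6 and run from 250 bases before to 50 after the annotated start. The capitals mark CAGCTG, an E-box of the kind that myogenic factors are known to bind. Cacna1s lies at chr1:136052561-136052860 on the plus strand, with the motif's first base at position -123 from the start. Scn7a lies at chr2:66784861-66785160 on the minus strand, with the motif at -150. Cacng7 lies at chr7:3332575-3332874 on the plus strand and holds none of the motifs searched.
Cacna1s: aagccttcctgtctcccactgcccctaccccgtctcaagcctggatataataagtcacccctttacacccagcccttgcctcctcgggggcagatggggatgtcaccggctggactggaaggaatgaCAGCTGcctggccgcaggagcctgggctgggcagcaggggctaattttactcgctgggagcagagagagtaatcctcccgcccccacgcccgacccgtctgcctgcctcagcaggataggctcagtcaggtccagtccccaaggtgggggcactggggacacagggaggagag
Scn7a: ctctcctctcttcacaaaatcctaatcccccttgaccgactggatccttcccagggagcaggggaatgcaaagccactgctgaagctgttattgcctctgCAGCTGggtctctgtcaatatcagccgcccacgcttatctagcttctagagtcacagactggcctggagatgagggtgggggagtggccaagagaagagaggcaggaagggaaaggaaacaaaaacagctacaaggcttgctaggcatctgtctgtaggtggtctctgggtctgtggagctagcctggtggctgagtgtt
Cacng7: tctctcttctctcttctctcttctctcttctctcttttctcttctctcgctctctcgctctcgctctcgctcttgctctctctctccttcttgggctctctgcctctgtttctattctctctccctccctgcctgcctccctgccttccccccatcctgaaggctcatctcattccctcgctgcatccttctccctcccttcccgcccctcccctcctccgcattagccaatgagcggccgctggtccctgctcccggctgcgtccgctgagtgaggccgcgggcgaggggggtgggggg

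The windows of channel genes were searched on both strands for CAGCTG, for the E-box CACCTG, for the SMAD motif GGCGCC and for the SMAD palindrome GTCTAGAC, none of which overlaps another in sequence. RefSeq windows matched 98 of the 126 genes and 7 of the 9 called ones; Cacna1g and Cacng1 were unmatched. CAGCTG was present for 2 of the 7 called genes (28.6%), for 29.6% of the matched channel genes and for 18.3% of the 27025 genes with a window. The lowered genes Kcnn3, Cacnb1 and Kcna3 did not hold it, and neither did Cacng7 and Kcnf1. CACCTG was held by 27.6% of the matched channel genes and 22.6% of all genes, and GGCGCC by 25.5% and 13.4%. GTCTAGAC was held by none of the matched channel genes and 0.248% of all genes. None of the last 3 motifs was found for a called gene. These matches describe letters in a window only.

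Cacna1s encodes the pore and voltage sensor of the muscle L-type channel. Its signals were 8.17 and 7.74 in untreated cells, 8.13, 8.00 and 7.66 in methanol, 6.55 and 7.02 at 10 ng/ml, 5.54 and 5.36 at 100 ng/ml, and 5.79 and 5.56 at 300 ng/ml. All 6 BMP4 arrays lay below all 5 control arrays, and the arrays at 100 and 300 ng/ml lay below those at 10 ng/ml. Over the 3 doses Cacna1s fell by 2.02 log2 units (SE 0.17, adjusted p = 2.82e-05, limma), a 4.06-fold lower level. At 10 ng/ml it fell by 1.17 (adjusted p = 0.0189, limma), and it was the only one of the 126 genes called lower there. Leaving out either untreated replicate 1 (adjusted p = 0.219) or BMP4 10 ng/ml replicate 1 (0.177) ended its call at this dose. Cacna1s fell by 2.50 at 100 ng/ml and fell by 2.40 at 300 ng/ml. In the fits with a labelling term, the 300 ng/ml mean of every gene rests on replicate 2 alone, since replicate 1 was labelled by another method.

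Cacnb1 encodes the beta subunit that holds the pore at the junction with the calcium store. It gave 8.34 and 7.89 in untreated cells, 8.27, 8.04 and 7.80 in methanol, 7.72 and 7.77 at 10 ng/ml, 7.06 and 6.78 at 100 ng/ml, and 6.86 and 7.01 at 300 ng/ml. Every BMP4 array was below both untreated arrays and below the lowest methanol array, by a small margin at 10 ng/ml. Over the doses Cacnb1 fell by 0.89 (SE 0.15, adjusted p = 0.00296, limma). The differences were -0.37 at 10 ng/ml (adjusted p = 0.538), -1.19 at 100 ng/ml and -1.11 at 300 ng/ml. Without untreated replicate 1 the difference over the doses was -0.67 and missed the threshold (adjusted p = 0.0741), and so did the difference at 300 ng/ml (adjusted p = 0.0553).

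Cacng1, the gamma subunit specific to skeletal muscle, was the brightest of the 126 genes. It measured 9.79 and 9.80 in untreated cells, 9.92, 9.80 and 9.75 in methanol, 9.70 and 9.75 at 10 ng/ml, 8.39 and 9.22 at 100 ng/ml, and 8.01 and 8.29 at 300 ng/ml. The arrays at 10 ng/ml were close to the untreated ones, and the 4 at the higher doses were clearly lower, with a wide gap between the 2 arrays at 100 ng/ml. Over the doses Cacng1 fell by 0.86 (SE 0.17, adjusted p = 0.00647, limma). The gene fell by 0.99 at 100 ng/ml and was 2.84-fold lower at 300 ng/ml. Without replicate 1 of 100 ng/ml the difference at that dose was -0.58. The call over the doses was lost without untreated replicate 1 (adjusted p = 0.0653) or untreated replicate 2 (0.0596), and with 1 mean for all doses (0.124). Leaving out BMP4 300 ng/ml replicate 2 removes that dose and the labelling term, and the mean over the 2 lower doses was -0.53 (adjusted p = 0.103).

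Cacna2d1, which encodes the alpha2delta subunit of the same channel, was not called. It gave 8.47 and 8.59 in untreated cells, 8.45, 8.81 and 8.83 in methanol, 8.77 and 8.84 at 10 ng/ml, 8.08 and 8.58 at 100 ng/ml, and 8.22 and 8.42 at 300 ng/ml. The 10 ng/ml arrays were above the untreated ones and the 300 ng/ml arrays below, so the mean over the doses differed by -0.01 (95% interval -0.33 to 0.30, adjusted p = 0.981, limma). Against methanol, 1 array of 10 ng/ml lay within its range and the other just above it. Its trend across doses was -0.09 per doubling (adjusted p = 0.300) and was called with a term for the run of sample numbers (-0.11, adjusted p = 0.0218).

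**Figure D1:**
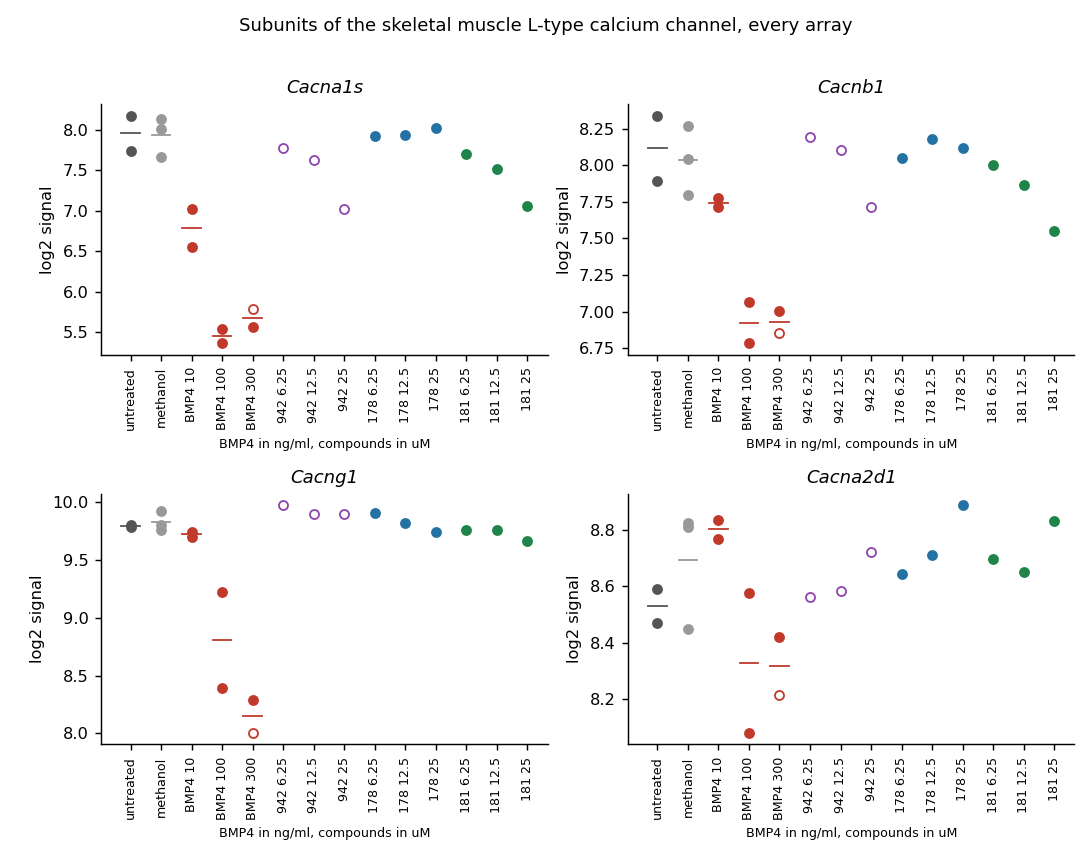
Log2 signal of Cacna1s, Cacnb1, Cacng1 and Cacna2d1 in every array, by treatment and dose (BMP4 in ng/ml, compounds in µM); lines are group means and open circles are arrays labelled by the Affyexpress method. Cacna1s drops from 8.17 and 7.74 in untreated cells to 5.54 and 5.36 at 100 ng/ml BMP4, and Cacna2d1 stays between 8.08 and 8.89 throughout.

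The other 9 calcium pore genes had 1 called member, Cacna1g, the pore of a T-type channel that opens at low voltage. Cacna1g gave 3.95 and 4.07 in untreated cells, 4.12, 3.92 and 4.16 in methanol, 4.86 and 4.70 at 10 ng/ml, 5.49 and 5.25 at 100 ng/ml, and 5.32 and 5.15 at 300 ng/ml. All 6 BMP4 arrays lay above all 5 control arrays. Over the doses Cacna1g rose by 1.09 (SE 0.14, adjusted p = 3.99e-04, limma). It was the only channel gene called higher at 10 ng/ml, by 0.77 (adjusted p = 0.0496). This call was lost when any single untreated, methanol or 10 ng/ml array was left out (adjusted p = 0.0682 to 0.308). Its mean signal was below the median of all genes (5.43), where a log2 difference can understate the change of the transcript. Cacna1h, another T-type pore, differed by 0.23 (adjusted p = 0.517) and Cacna1i, the third, by -0.17 (adjusted p = 0.601).

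Of the 15 auxiliary calcium subunits, 1 was raised and 2 lowered. The raised one, Cacng7, belongs to the gamma family and is known as a partner of glutamate receptors. Cacng7 measured 6.06 and 5.99 in untreated cells, 6.40, 5.86 and 5.87 in methanol, 7.43 and 6.45 at 10 ng/ml, 7.87 and 7.48 at 100 ng/ml, and 7.86 and 7.53 at 300 ng/ml. No BMP4 array overlapped the controls, and the lowest BMP4 array, one of 10 ng/ml, was just above the highest methanol array. Over the doses Cacng7 rose by 1.36 (SE 0.24, adjusted p = 0.00316, limma), a 2.57-fold higher level. At 10 ng/ml the difference of 0.92 was not called (adjusted p = 0.207) and rested on which of its arrays was kept: it was 0.43 without replicate 1 (adjusted p = 0.761) and 1.41 without replicate 2 (adjusted p = 0.0241). With the run term it was called (adjusted p = 0.0199). The rise at 300 ng/ml, 1.51, missed the threshold without untreated replicate 1 or 2 (adjusted p = 0.0613 and 0.0680).

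The 8 sodium channel alpha subunits had 1 called gene. Scn7a encodes an atypical member of the family that is known as a sodium sensor more than as a voltage-gated pore. Scn7a gave 6.67 and 7.28 in untreated cells, 6.86, 7.44 and 7.45 in methanol, 6.14 and 6.46 at 10 ng/ml, 4.65 and 5.04 at 100 ng/ml, and 4.38 and 4.31 at 300 ng/ml. Values fell with each dose, and the arrays of the 4 groups (untreated and 3 BMP4 doses) did not overlap. Over the doses Scn7a fell by 1.82 (SE 0.21, adjusted p = 1.99e-04, limma), and at 300 ng/ml it fell by 2.66, which is 6.31-fold. At 10 ng/ml the difference of -0.67 was not called (adjusted p = 0.341) and was called with a term for the run of sample numbers (adjusted p = 0.0148). The other 7 alpha subunits lay between -0.40 (Scn3a, adjusted p = 0.172) and 0.15 (Scn1a, adjusted p = 0.644), and the 3 beta subunits between -0.10 (Scn2b) and -0.04 (Scn3b). Only 1 of the 8 alpha genes and none of the 3 beta genes was brighter than the median gene.

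Among the 8 calcium- or sodium-activated potassium channels, Kcnn3 was called. It encodes a small-conductance channel that opens when calcium binds its calmodulin and is known from immature and denervated muscle. Kcnn3 gave 7.53 and 7.23 in untreated cells, 7.69, 7.71 and 7.28 in methanol, 7.12 and 7.08 at 10 ng/ml, 4.71 and 5.62 at 100 ng/ml, and 5.56 and 5.01 at 300 ng/ml. The 10 ng/ml arrays were just below the controls, and the 4 arrays of higher doses were far below them. Over the doses Kcnn3 fell by 1.62 (SE 0.21, adjusted p = 5.02e-04, limma). The difference was -0.27 at 10 ng/ml (adjusted p = 0.791), and Kcnn3 fell by 2.21 at 100 ng/ml and fell by 2.36 at 300 ng/ml. With 1 mean for all doses, where the step between doses counts as error, its adjusted p was 0.0636.

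Kcnn4, the intermediate-conductance relative known for its part in cell proliferation, gave 8.10 and 7.91 in untreated cells, 7.79 and 6.97 at 10 ng/ml, 7.81 and 7.59 at 100 ng/ml, and 7.71 and 7.77 at 300 ng/ml. All 6 BMP4 arrays lay below both untreated arrays, and 1 array of 10 ng/ml stood apart at 6.97. The difference over the doses was -0.38 (95% interval -0.78 to 0.01, adjusted p = 0.268, limma). Without that array, replicate 2, it was -0.25 (adjusted p = 0.251), and without replicate 1 of the dose it was called (-0.52, adjusted p = 0.0193). Kcnma1, the large-conductance pore, differed by 0.28 (95% interval -0.05 to 0.60, adjusted p = 0.349).

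The 36 voltage-gated potassium alpha subunits were the largest family, and 1 was called over the doses. Kcna3 encodes a delayed rectifier best known from lymphocytes. Kcna3 measured 6.19 and 6.26 in untreated cells, 6.26, 6.06 and 6.05 in methanol, 5.55 and 5.65 at 10 ng/ml, 5.48 and 5.46 at 100 ng/ml, and 5.34 and 5.36 at 300 ng/ml. The BMP4 arrays formed a tight group below all controls. Over the doses Kcna3 fell by 0.74 (SE 0.12, adjusted p = 0.00192, limma), with differences of -0.62, -0.75 and -0.86 at the 3 doses, of which the first was not called (adjusted p = 0.0675). That difference at 10 ng/ml was called with no labelling term, with both controls together, with the run term and among brighter genes only (adjusted p = 0.0189 to 0.0434).

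Kcnf1 encodes an electrically silent alpha subunit that modifies other potassium channels. It gave 5.85 and 5.61 in untreated cells, 5.68, 5.66 and 5.71 in methanol, 5.76 and 5.41 at 10 ng/ml, 6.74 and 5.61 at 100 ng/ml, and 6.95 and 7.10 at 300 ng/ml. Both 300 ng/ml arrays were above every control, the 100 ng/ml arrays were split, and those at 10 ng/ml overlapped the controls. At 300 ng/ml Kcnf1 rose by 1.37 (SE 0.35, adjusted p = 0.0299, limma). It was not called once untreated replicate 1 (adjusted p = 0.0679) or 2 (0.120) was left out. The difference over the doses was 0.56 (adjusted p = 0.213), and it was called against both controls together (0.58, adjusted p = 0.0382) or with BMP4 100 ng/ml replicate 2 left out (0.74, adjusted p = 0.00631). With replicate 1 of that dose left out it was 0.37 (adjusted p = 0.174), and over the 10 and 100 ng/ml doses alone it was 0.15 (adjusted p = 0.847).

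Kcnd1, a rapidly inactivating channel, came nearest to a call among the rest. Kcnd1 gave 5.77 and 5.76 in untreated cells, 6.28 and 5.91 at 10 ng/ml, 6.13 and 6.45 at 100 ng/ml, and 6.57 and 6.58 at 300 ng/ml. Its 6 BMP4 arrays lay above both untreated arrays, but methanol reached 5.98. The difference of 0.55 (95% interval 0.20 to 0.91) had an adjusted p of 0.0568 (limma). It was called with no labelling term (adjusted p = 0.0278), against methanol (0.0179), against both controls together (0.00400) and with the run term (0.0443). It stayed uncalled with quantile normalization (0.0507), with arrays centred on their medians (0.0805) and without either untreated array. Over the 10 and 100 ng/ml doses alone, with no labelling term, the difference of Kcnd1 was 0.43 and was not called. Kcnh1, named above for myoblast hyperpolarisation, differed by -0.10 at 10 ng/ml and by 0.63 at 300 ng/ml, with a trend of 0.14 per doubling (adjusted p = 0.0710, and 0.0257 with no labelling term).

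Kcna4, another rapidly inactivating channel and the brightest of the voltage-gated potassium genes, differed by 0.20 over the doses (95% interval -0.37 to 0.77, adjusted p = 0.774, limma). Its 20 arrays ran from 6.66 to 7.72, and the lowest were an untreated and a 100 ng/ml array. The other probe set of Kcna4 was far dimmer (mean 3.69) and differed by 0.45 (SE 0.19). Its trend was 0.16 per doubling of dose, against -0.11 for the brighter one, so the probe sets disagree in the direction with dose. Kcna7, a muscle channel, differed by -0.19 (adjusted p = 0.611). In the 17 potassium channel partners none was called, with a range from -0.27 (Kcnip2) to 0.35 (Kcnab2), and Kcne3, a small single-span partner, differed by 0.11 (adjusted p = 0.801). Cacnb2, a beta subunit of calcium channels, differed by 0.07 (adjusted p = 0.889).

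None of the 14 inward rectifiers, which hold the resting voltage, was called over the doses. Kcnj2, a strong rectifier, had the largest difference of any uncalled channel gene. Kcnj2 gave 6.70 and 5.69 in untreated cells, 6.63, 5.89 and 6.03 in methanol, 5.91 and 5.20 at 10 ng/ml, 5.20 and 5.61 at 100 ng/ml, and 5.77 and 5.28 at 300 ng/ml. The first untreated and methanol arrays, numbered 10 to 17 in the sample titles with replicate 1 of each BMP4 dose, were higher than those numbered 18 to 29, so the BMP4 and control arrays overlapped. The BMP4 mean minus the untreated array was -1.08 within the first run of numbers and -0.32 within the second. The first-run mean includes the Affyexpress array of 300 ng/ml, with no labelling correction. The difference over the doses was -0.78 (95% interval -1.41 to -0.15, adjusted p = 0.137, limma), and it was -0.70 with a run term (adjusted p = 0.0647). It was called against both controls together (adjusted p = 0.0228) and without untreated replicate 2 (-1.29, adjusted p = 0.0370), while without untreated replicate 1 it was -0.27 (adjusted p = 0.794). Kcnj11, the pore of the ATP-sensitive channel, differed by 0.06 and Kcnj12, a rectifier of the same subfamily as Kcnj2, by -0.12. The 13 two-pore-domain channels, which carry background potassium current, ranged from -0.26 (Kcnk6) to 0.19 (Kcnk4) with none called.

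**Figure D2:**
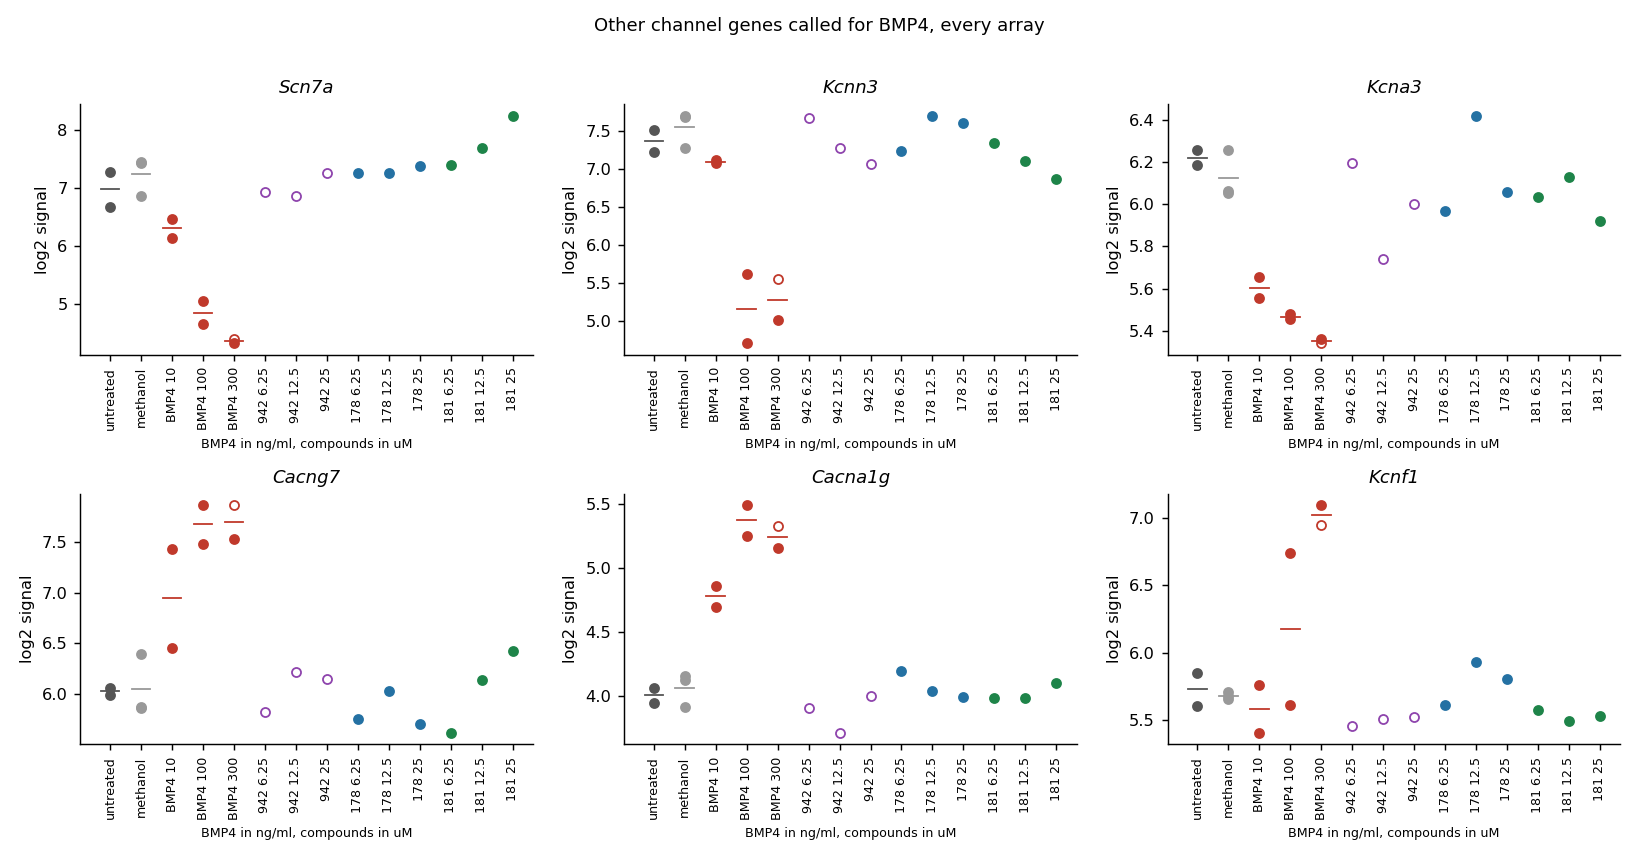
Log2 signal of Scn7a, Kcnn3, Kcna3, Cacng7, Cacna1g and Kcnf1 in every array, by treatment and dose (BMP4 in ng/ml, compounds in µM); lines are group means and open circles are arrays labelled by the Affyexpress method. The 6 BMP4 arrays lie outside the range of the 5 control arrays for 5 of the genes, and Kcnf1 reaches 6.95 and 7.10 only at 300 ng/ml.

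Most channel genes were dim and were not called. Of the 126 genes 38 were brighter than the median of all genes; 7 of these were called over the BMP4 doses (18.4%), against 15.8% of all genes as bright. Among the 88 dimmer ones 1 was called (1.14%), against 1.84% of all dimmer genes. The 117 genes not called in any BMP4 contrast ranged from -0.78 to 0.55, and for 116 of them the 95% interval lay within 1 log2 unit of no change. The median difference was -0.04 over the 126 genes and -0.01 over all genes. All 6 BMP4 arrays lay above both untreated arrays for 4 channel genes (3.17%, against 7.32% of all genes) and below both for 14 (11.1%, against 8.95%).

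**Figure D3:**
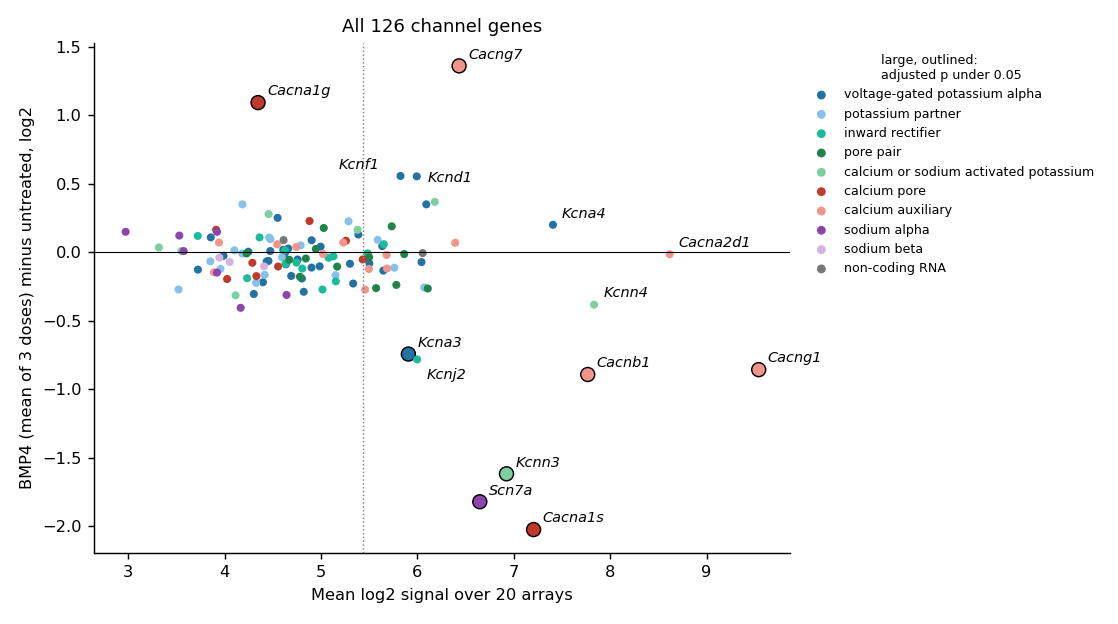
Difference of BMP4 (mean of 3 doses) from untreated cells on the log2 scale against mean log2 signal over 20 arrays, for all 126 channel genes by family; large outlined points have an adjusted p under 0.05 and the dotted line is the median signal of all genes (5.43). The 6 lowered genes and Cacng7 lie to the right of the line, Cacna1g lies to its left, and most other points lie close to 0.

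Calls rose between the lowest and the middle dose, among channel genes and among all genes. At 10 ng/ml 1 channel gene was raised and 1 lowered (0.794% each), against 0.555% and 0.546% of all genes. At 100 ng/ml 2 were raised and 6 lowered (1.59% and 4.76%), against 4.4% and 4.75% of all genes. At 300 ng/ml 3 were raised and 6 lowered (2.38% and 4.76%), against 3.7% and 4.28%. The trend on log2 dose among BMP4 arrays was called upwards for 1 gene, Kcnf1 (0.794%), and downwards for 5 (3.97%). Of all genes 2.32% and 3.08% were called for a trend upwards and downwards.

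The steepest falls per doubling of dose were those of Kcnn3 (-0.45, adjusted p = 9.55e-04, limma) and Scn7a (-0.41, adjusted p = 0.00158), followed by Cacng1 (-0.29, adjusted p = 0.00327), Cacna1s (-0.27, adjusted p = 0.00552) and Cacnb1 (-0.17, adjusted p = 0.0444). Kcnf1 rose by 0.29 per doubling (adjusted p = 0.0242). Kcna3 (-0.05, adjusted p = 0.560), Cacna1g (0.09, adjusted p = 0.253) and Cacng7 (0.14, adjusted p = 0.341) were not called for a trend. Their differences at 10 ng/ml were -0.62, 0.77 and 0.92. Cacng7 was called for a trend with the run term (0.18, adjusted p = 0.0222) and once BMP4 10 ng/ml replicate 1 was left out (0.24, adjusted p = 0.0369). Without BMP4 10 ng/ml replicate 2 the trends of Cacna1s (adjusted p = 0.0573), Cacnb1 (0.180) and Kcnf1 (0.167) were lost. Between 10 and 100 ng/ml alone, with no labelling term, the trend of Kcnf1 was 0.18 (adjusted p = 0.416). The trend of Cacnb1 was lost in 4 further settings (0.0760 to 0.116).

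**Figure D4:**
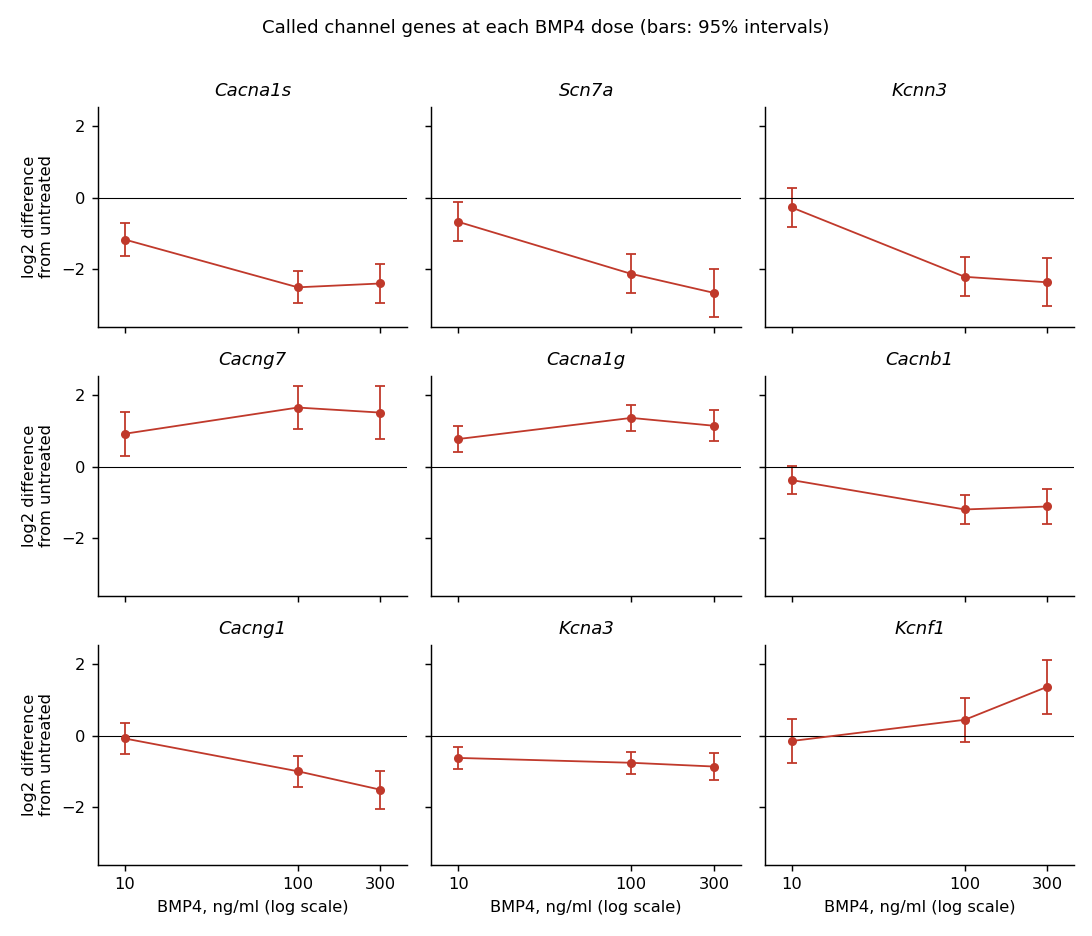
Log2 difference from untreated cells at 10, 100 and 300 ng/ml BMP4 (log axis) for the 9 called channel genes, with 95% intervals. Kcnn3 and Cacng1 lie near 0 at 10 ng/ml (-0.27 and -0.07) and fall at the higher doses, while Kcna3 is similar at all 3 doses (-0.62, -0.75 and -0.86).

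The run of sample numbers did not turn any of these directions. Within the first and second runs the BMP4 mean minus its own untreated array was -2.22 and -1.76 for Cacna1s, -1.13 and -0.71 for Cacnb1, and -1.09 and -0.72 for Cacng1. It was -1.62 and -2.0 for Scn7a, -1.73 and -1.32 for Kcnn3, and -0.73 and -0.77 for Kcna3. The rises were 1.66 and 1.17 for Cacng7, 1.28 and 0.97 for Cacna1g, and 0.63 and 0.43 for Kcnf1. The first-run means include BMP4 300 ng/ml replicate 1, labelled by the Affyexpress method, while the untreated array was not. No labelling correction was made here, so run and labelling are mixed in the first-run values.

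Genes around the channels were counted from lists chosen for muscle excitability. For these lists and the marker lists below, the background was 4.2% of all genes raised and 4.6% lowered by BMP4. This share depends on brightness: 15.8% of genes brighter than the median were called in either direction, and 1.84% of dimmer ones. Brighter were 18 of the 25 excitation-contraction genes, 12 of the 18 channel anchors and partners, and most muscle markers. Of 25 measured genes of excitation-contraction coupling and the muscle membrane, 15 were lowered by BMP4 and 1 raised (median -0.69). Among them the ryanodine receptor Ryr1, the release channel that Cacna1s gates, fell by 2.30 (adjusted p = 8.91e-05, limma), and Stac3, an adaptor of the Cacna1s complex, fell by 0.78 (adjusted p = 0.00444). Musk, the receptor kinase of the neuromuscular junction, rose by 0.44 (adjusted p = 0.00897). Clcn1, the muscle chloride channel, differed by 0.14 (adjusted p = 0.682). Of 18 measured anchors and partners of channels 5 were lowered and none raised, among them Sntb1, a syntrophin of the membrane scaffold (-2.18, adjusted p = 3.85e-06), and Rrad, a small GTPase that inhibits L-type channels (-1.52, adjusted p = 0.00192).

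Of 5 measured subunits and regulators of the sodium and potassium pump, 3 were raised and none lowered. Fxyd1, a regulator of the pump in muscle, rose by 2.00 (adjusted p = 1.27e-04, limma), Fxyd5 by 0.97 and Atp1b3 by 0.40. Of 25 other ion channels 1 was raised, the cation channel Trpv4 (0.93, adjusted p = 0.00776). Lowered were 2, the muscle anoctamin Ano5 (-2.98, adjusted p = 1.19e-04) and the purine receptor P2rx5 (-0.51, adjusted p = 0.0483).

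Muscle and bone markers moved in the same arrays. BMP4 lowered 16 of 16 sarcomere genes (median -2.57) and 8 of 10 myoblast genes, and raised 7 of 11 osteoblast genes. The myoblast genes not called over the doses were Myf5 (-0.13, adjusted p = 0.652, limma) and Pax7 (-0.27, adjusted p = 0.141). At 300 ng/ml Myf5 differed by -0.63 and Pax7 by -0.52. The mean over the sarcomere list was 9.41 to 9.62 in untreated arrays and 5.78 to 9.12 in BMP4 arrays, and that over the osteoblast list was 5.96 to 6.01 and 6.13 to 8.37. Of 10 neuron markers 1 was raised and 3 lowered, and of 8 smooth muscle markers 2 were raised and 1 lowered. The lowered one, Des, is also among the lowered myoblast genes, and Chrna1 counts in both the myoblast and the excitation-contraction lists. Of 8 cardiomyocyte markers 1 was lowered, and of 6 glial and 7 epithelial markers 1 each was raised. Among 8 endothelial and 8 macrophage markers none was called. The part of these shifts in the channel results was not tested, and in RNA of whole wells fewer cells of a type and less RNA per cell cannot be told apart.

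The compounds were compared with methanol, the solvent that the protocol names beside them, and no channel gene was called for any of the 3. The mean over 3 doses was called for 0% of all genes with compound 942, 0% with 178 and 0.00451% (1 gene) with 181. At an unadjusted p under 0.05 stood 2 channel genes for 942, 5 for 178 and 4 for 181, against 1.5%, 2.47% and 3.68% of all genes. Methanol against untreated cells likewise gave no called channel gene (0% of all genes called), and 1 at an unadjusted p under 0.05 (2.86% of all genes). Each compound dose had 1 array, so a compound's arrays were assumed to vary like those of the replicated groups. All 942 arrays were labelled by the Affyexpress method and no methanol array was. With no labelling term, an effect of 942 therefore cannot be told apart from labelling. With the term, every 942 difference is corrected by the gap between the arrays of the highest BMP4 dose alone. Those arrays also differ in the run of sample numbers.

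Cacna1s was among the 3 channel genes that differed most from methanol with compound 181. With 181 it gave 7.70 at 6.25 µM, 7.51 at 12.5 µM and 7.05 at 25 µM, where methanol gave 8.13, 8.00 and 7.66. The signal stepped down with dose, and 2 of the 3 arrays lay below all methanol arrays. The mean difference was -0.51 (95% interval -0.88 to -0.14, adjusted p = 0.9998, limma), and at 25 µM it was -0.88 (95% interval -1.40 to -0.36, adjusted p = 0.396). With 942 Cacna1s gave 7.78, 7.63 and 7.02, also with 2 of 3 arrays below all methanol arrays, and with 178 it gave 7.93, 7.93 and 8.02, all within the range of methanol. The mean difference was -0.68 for 942 (95% interval -1.41 to 0.05) and 0.03 for 178. With no labelling term the 942 difference of Cacna1s was -0.46. The mean over the sarcomere list ran from 8.76 to 9.33 with 181, from 8.83 to 9.47 with 942, from 9.45 to 9.50 with 178 and from 9.25 to 9.65 in methanol, and its part in these differences was not tested.

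Scn7a, which fell under BMP4, was higher than methanol with compound 181. It gave 7.39, 7.68 and 8.25 in order of dose, where methanol reached 7.45, so that 2 of 3 arrays lay above all methanol arrays. The mean difference was 0.53 (95% interval 0.08 to 0.97, adjusted p = 0.9998, limma) and that at 25 µM was 1.0 (95% interval 0.38 to 1.63, adjusted p = 0.436). With the run term the mean difference of Scn7a for 181 was 0.36. The lowest methanol array lies in the first run of sample numbers, which holds no array of 181. With 942 Scn7a gave 6.93, 6.86 and 7.26, and with 178 7.25, 7.26 and 7.38, all within the range of methanol.

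Kcnn3 gave 7.34, 7.11 and 6.87 with 181, 7.68, 7.28 and 7.08 with 942, and 7.24, 7.71 and 7.62 with 178. Methanol arrays ran from 7.28 to 7.71, so the 2 higher doses of 181, the highest of 942 and the lowest of 178 lay below them. The mean difference was -0.45 for 181 (95% interval -0.90 to -0.004, adjusted p = 0.9998, limma), -0.76 for 942 (95% interval -1.66 to 0.13, adjusted p = 0.9999) and -0.04 for 178. All 942 arrays were labelled by the Affyexpress method, and with no labelling term the 942 difference of Kcnn3 was -0.22. Which value is nearer to an effect of 942 cannot be decided, as compound and labelling differ together from methanol.

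Other genes singled out by size belonged to compounds 942 and 178. Scn3a, a sodium pore of developing neurons, differed by -0.74 with 942 (95% interval -1.42 to -0.06, adjusted p = 0.9999, limma), yet its 3 signals of 4.07, 4.06 and 4.10 lay within those of methanol (3.97 to 4.32), and with no labelling term the difference was -0.08. With 178, Kcns1, a silent potassium alpha subunit, gave 4.85, 4.19 and 4.32 against 4.76 to 4.99 in methanol (-0.44, adjusted p = 0.9999). Kcnmb1, a partner of the large-conductance channel, gave 5.78, 5.69 and 5.51 against 5.06 to 5.46 (0.40, adjusted p = 0.9999), so all 3 arrays lay above methanol. Kcnj2 gave 5.74, 5.75 and 5.96 against 5.89 to 6.63, a difference of -0.37 that was -0.20 with the run term. The methanol array at 6.63 lies in the first run, which holds no array of 178.

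**Figure D5:**
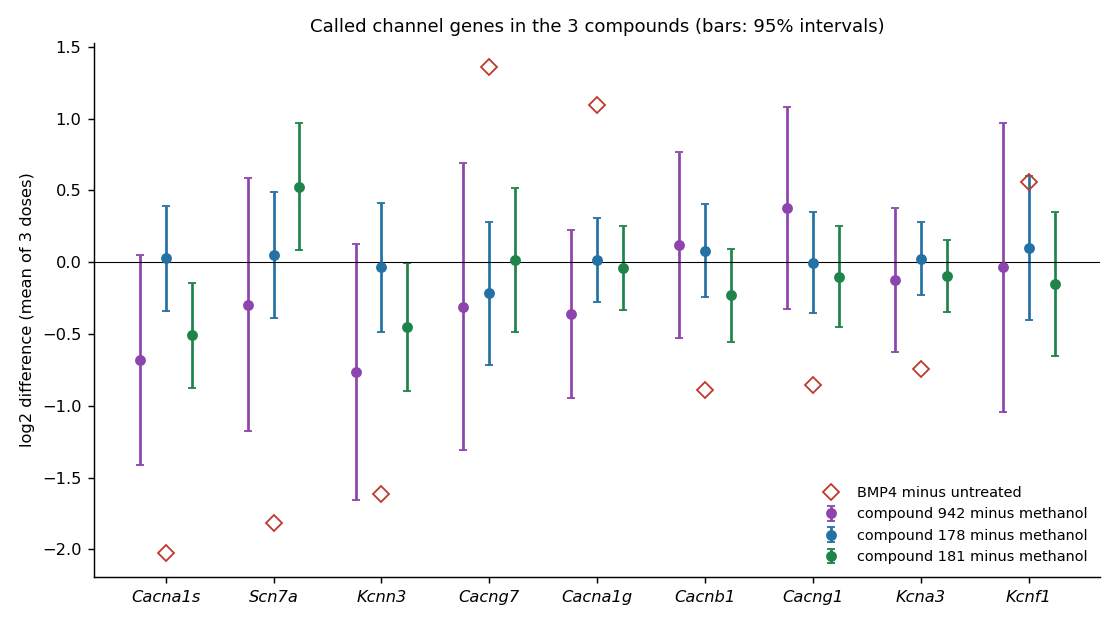
Log2 difference from methanol (mean of 3 doses) with 95% intervals for compounds 942, 178 and 181, and log2 difference of BMP4 from untreated cells (open diamonds), for the 9 called channel genes. With compound 181 the intervals of Cacna1s (-0.88 to -0.14) and Scn7a (0.08 to 0.97) leave out 0, and so does that of Kcnn3 (-0.90 to -0.004), on the same side as BMP4 for Cacna1s and Kcnn3 and on the other side for Scn7a.

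The 3 pairs of compounds were compared at matched doses, and no channel gene was called for any pair. Compound 181 minus 178 was called for 0.00451% of all genes (1 gene), and both 942 minus 178 and 942 minus 181 for 0%. At an unadjusted p under 0.05 stood 5, 5 and 2 channel genes in these pairs, against 5.29%, 1.81% and 1.64% of all genes. Between 181 and 178, Cacna1s differed by -0.54 over the doses (95% interval -0.90 to -0.17, adjusted p = 0.810, limma) and by -0.96 at 25 µM (95% interval -1.60 to -0.33, adjusted p = 0.699). Scn7a differed by 0.48 (95% interval 0.03 to 0.92) and Kcnmb1 by -0.44 (95% interval -0.77 to -0.11). Between 942 and 178 the difference of Scn3a was -0.83 (95% interval -1.50 to -0.15), and between 942 and 181 it was -0.80 (95% interval -1.47 to -0.12). With no labelling term these differences of Scn3a were -0.17 and -0.14. In both pairs with 942 the compound and the labelling method differ together. The intervals of the pairs are wide, and the misses do not show that the compounds act alike.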

How the data were processed

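The authors' deposited values, 1 log2 signal per probe set and array, were used as they stood. They were made with RMA in Partek 6.5, per the submitters' processing notes. Some samples were labelled by a method called Affyexpress, per the labels' protocols. These were BMP4 300 ng/ml replicate 1 and the 3 arrays of compound 942. The labels say that 3 samples were labelled by both methods to allow a correction between batches; whether the deposited values carry it is not stated, and if they do, the labelling term corrects again. The doses 12.5 µM and 100 ng/ml came from sample titles, as the protocol does not list them. Of 41345 probe sets 23521 carried 1 symbol, 1814 several and 16010 none in the platform annotation, which can be old. Array medians lay between 4.93 and 5.05, and arrays correlated at 0.967 to 0.994. The number of arrays limits the precision.

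A mean for each treatment and dose plus a labelling term were fitted to all 20 arrays with limma 3.58.1 in R 4.3.3 moderated with a trend, with 5 residual degrees of freedom. Nothing in the labels says that replicate arrays are separate cultures; the p-values then measure only the spread between these arrays, which may be technical. Intervals are unadjusted 95% intervals.

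Named were called genes, the 10 brightest, a fixed list of muscle channels and the 3 largest differences of each compound; others named are the extremes of a family, members of the pairs of compounds and genes of the lists, chosen after their values were seen. The members and lists were chosen with earlier results of these data known. The script was tested on simulated data.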

Additional observations from a re-analysis of the deposited data

How the results depend on the processing

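Alternatives were another control, no labelling term, a term for the run of sample numbers, another probe set rule, normalization, centring, moderation, a filter on dim genes, 1 mean for the doses, and leaving out each array in turn. The 2 channel genes raised over the BMP4 doses became 4 with methanol as the control, by Kcnd1 and Kcnh2, and 5 with both controls together; the 6 lowered stayed between 4 and 8. At 10 ng/ml the 2 called genes became 5 with the run term and ranged from 0 to 2 when single arrays were left out. For the trend the 6 called genes became 10 with the run term and ranged from 3 to 7 when single arrays were left out. Counts at 100 and 300 ng/ml ranged from 7 to 11 and from 6 to 12. No channel gene was called for methanol, for a compound or for a pair of compounds under any alternative run. The calls of Cacna1s, Scn7a, Cacng7 and Kcna3 over the BMP4 doses held under all 30 alternatives, and no called difference changed sign. Where a count moved, the cause was not tested. The labels carry no replicate numbers, so the run term was the only block fitted. Without BMP4 300 ng/ml replicate 2 the mean and the trend covered 10 and 100 ng/ml only, with no labelling term.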
